A study of Danio rerio with 30 samples.

Results

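The 5 consecutive segments S1 to S5 of the adult zebrafish intestine, counted from the rostral end, were each hybridised together with RNA of the whole adult fish on the same array, and the genes that stood above or below the whole fish in every segment are described here. The members are the 24 of 30 arrays that carried these segments, with 5 arrays for each of S1, S2, S3 and S4 and 4 arrays for S5. S1 and S2 make up the rostral intestinal bulb, S3 and S4 the mid-intestine and S5 the first piece of the caudal intestine. All fish were untreated wild type adults of about 1 year, and every replicate was intestine pooled from several male fish. The segment RNA was labelled with Cy5 (red) and the whole-fish RNA with Cy3 (green) on every array. The whole-fish RNA, per the labels 9 parts male to 1 part female, contains intestine itself. No array had its dyes exchanged, so a preference of a probe for a dye and a difference between intestine and whole fish cannot be told apart. The whole-fish RNA was 1 common sample, so each test of a ratio against 0 covers the spread between intestinal pools and leaves out that of the whole fish. In RNA of whole tissue, fewer cells of a type and less RNA per cell cannot be told apart.

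Zebrafish have no stomach, and food passes from the oesophagus straight into the intestinal bulb. The lining is a single layer of columnar enterocytes with goblet and enteroendocrine cells between them, wrapped in smooth muscle. Enterocytes carry a brush border of actin-filled microvilli with membrane-bound peptidases, take up sugars, peptides and amino acids through solute carriers, re-esterify absorbed fatty acids to triglyceride and export it in apolipoprotein B particles. They also oxidise and conjugate foreign compounds.

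A value below is the log2 of intestine over whole fish after background correction and loess normalization within the array, so that 1 is a 2-fold excess in intestine and -1 a 2-fold excess in the whole fish. A probe was called enriched (or depleted) where the mean log2 ratio was at least 1 (or at most -1) with a limma adjusted p under 0.05 in each of the 5 segments. Of 19479 probes tested, 931 were enriched (4.78%) and 1777 depleted (9.12%). With 1 probe taken per gene, 448 of 8754 genes were enriched (5.12%) and 1052 were depleted (12%). Counts in the gene lists below are to be read against these shares over all genes. The median log2 ratio was 0.01 over probes and -0.12 over genes.

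The depleted side held the larger differences. The 448 enriched genes had mean log2 ratios of 1.09 to 4.26 with a median of 1.89, and 24 of them reached 3. The 1052 depleted genes ranged between -6.50 and -1.04 with a median of -1.86, and 217 lay at or below -3. All 24 arrays fell on the same side of 0 for 432 enriched genes (96.4%) and 949 depleted genes (90.2%). The calls were made on these same arrays, so the 2 shares describe the members and are no separate support. The limit of 2-fold in every segment left close neighbours on either side. pdcd10a was inside with a lowest segment mean of 1.00 in S1 and lost its call when any of 7 single arrays was left out, while gsn, at 0.9998 in S2, and vwa5a, at 0.999 in S2, were outside. A further 161 genes were enriched in 4 of the 5 segments, of which 86 lacked only S5, 47 only S2, 15 only S1, 9 only S4 and 4 only S3. In the other direction 256 genes were depleted in 4 segments.

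The arrays were not equally sensitive, and their number limits the precision. Between 37.2% and 69.3% of spots were above background in the intestine dye, and between 53.0% and 84.4% in the whole-fish dye. Each array had 37 to 265 saturated spots in the intestine dye and 29 to 229 in the whole-fish dye. Profiles correlated at a mean r of 0.896 between arrays of the same segment and 0.869 between segments, over probes that are not independent of each other. Some arrays stood apart in particular genes. S1 replicate 4 was less negative for egg genes and S5 replicate 3 for muscle genes, as given below, and with both left out 462 genes were enriched and 1073 were depleted. The share of the 448 enriched genes that reached 1 on a single array was lowest on S2 replicate 1 and S5 replicate 3, at 71.2% each, and that of the 1052 depleted genes at or below -1 was lowest on S2 replicate 1, at 67.7%.

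The gene with the highest ratio was ugt5a2, a UDP-glucuronosyltransferase. Its log2 ratio was 4.34, 4.83, 4.36, 4.61 and 4.49 in the 5 S1 pools, 3.77, 5.14, 4.06, 4.60 and 4.64 in S2, 4.61, 4.41, 4.19, 5.01 and 4.46 in S3, 4.30, 3.90, 4.27, 4.79 and 3.41 in S4, and 4.34, 3.81, 3.07 and 3.42 in S5. All 24 pools lay above 3 on this scale, and the mean of 4.26 ± 0.08 (SE, n = 24) is a 19.1-fold excess with a limma adjusted p of 5.0e-22. Here and below n counts arrays, and pools of different segments may come from the same fish. The SE is that of the mean of the 5 segment means and leaves out the spread between segments. Its probe was above background in the whole-fish dye on 14 arrays, so the size of the excess rests partly on dim spots.

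Next came slc16a6b, a member of the monocarboxylate transporter family, at 3.95 ± 0.11 (SE, n = 24), with a lowest, median and highest array of 2.35, 3.99 and 4.92. The third was apoa4a, an apolipoprotein of chylomicrons, at 3.86 ± 0.10, which ran between 0.55 and 5.16, with the low values in S5 as described below. Its intestine spot was saturated on 9 arrays, 4 of S1, 2 of S2 and 3 of S3, so the means of these segments are too small. The leading 15 were chosen among enriched genes with a gene name and all 24 arrays above 0. Cy5 above background on every array and saturation on no more than 12 arrays were also required. The other 12 of these genes had means between 3.05 and 3.51. Among them were gpat3, which starts glycerolipid synthesis, at 3.46 ± 0.06, slc27a4, which brings long-chain fatty acids into the triglyceride pathway, at 3.33 ± 0.08, plin2, a coat protein of lipid droplets, at 3.16 ± 0.08, and pls1, a bundler of microvillar actin, at 3.101 ± 0.05. Also in the group were 3 members of the cyp46a1 family, oxidases whose mammalian counterpart hydroxylates cholesterol, with means of 3.40, 3.31 and 3.12. gdpd1, a phosphodiesterase of glycerolipids, had 3.51 and a second probe at 3.23. slc43a2b, a carrier of large neutral amino acids, had 3.49 with a second probe at 3.34.

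**Figure D1:**
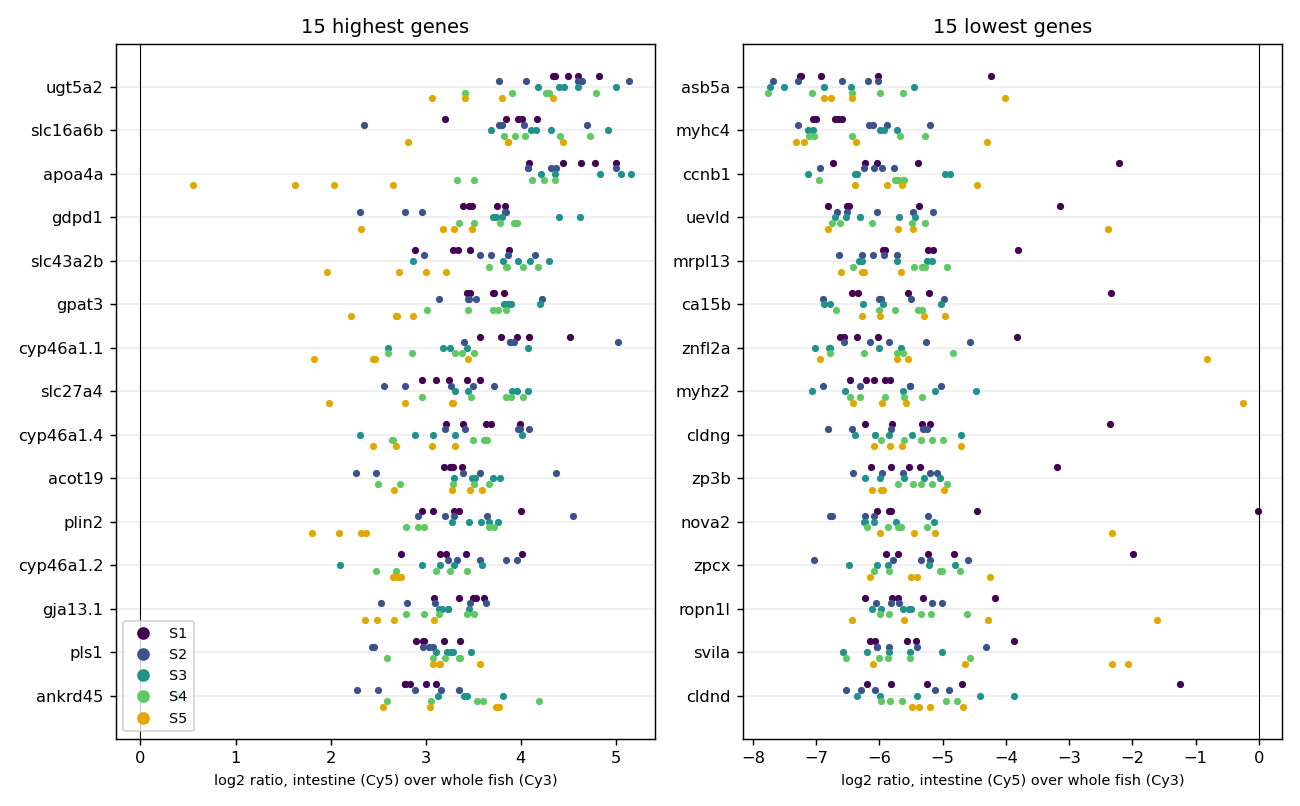
Log2 ratio of intestine over whole fish on each of the 24 arrays (points, coloured by segment) for 15 enriched and 15 depleted genes. These have the highest and lowest means among the called genes that qualified. A gene qualified with a gene name, no heavy saturation and the same sign on all 24 arrays. The intestine dye (enriched) or the whole-fish dye (depleted) also had to be above background on every array. ugt5a2 leads the enriched side at a mean of 4.26 and asb5a the depleted side at -6.50, and single points far from the rest belong to S1 replicate 4, S5 replicate 3 and a few other arrays.

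Some of the brightest genes of the intestine are known here only as limits, because the Cy5 spot reached the top of the scanner's scale on more than 12 of the 24 arrays and the ratio is then too small. They include pck1, the entry enzyme of gluconeogenesis, at 3.49 (17 arrays saturated), cd36, a fatty acid receptor, at 2.32 (21 arrays), fabp1b.1 and fabp2, fatty acid carriers of enterocytes, at 2.17 (19 arrays) and 1.97 (22 arrays), apoa4b.1 at 2.74 (20 arrays), tm4sf4, a membrane protein, at 2.75 (19 arrays) and lgals2b, a galectin, at 2.02 (23 arrays). In all, 15 enriched genes were saturated in the intestine dye on more than 12 arrays and 30 depleted genes in the whole-fish dye.

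Genes of lipid absorption and lipoprotein assembly made up the most evenly enriched list. Of 31 measured, 22 were enriched and none was depleted, with a median log2 ratio of 1.97 against -0.12 over all genes tested. Each step of the path had called members. Besides the uptake genes given above, acsl5, which activates fatty acids to acyl-CoA, had 2.70, mogat2 and dgat2, which build triglyceride, had 2.93 and 1.95, mttp, which loads lipid onto apolipoprotein B, had 3.03 ± 0.05 (SE, n = 24), and sar1b, the GTPase needed to ship chylomicrons out of the endoplasmic reticulum in humans, had 1.96. plin3 reached 2.87, and pla2g12b, a secreted phospholipase relative that acts in lipoprotein export in zebrafish, reached 2.68. apoa1a averaged 1.59 and missed the call, with an S5 mean of 0.96 and saturated spots on 23 arrays. The lowest member was fabp6, the ileal bile acid-binding protein, at -1.09, which was not called. A second mogat2 probe read 0.00, but it was above background on only 2 arrays in the intestine dye and 7 in the whole-fish dye.

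The fatty acid-binding proteins as a family did not move as a block. Of 11 measured, 3 were enriched and none was depleted, where 5.12% and 12% of all genes were. The family's median of 0.16 fell to -0.00 when arrays were only centred on their medians. The third enriched member beside fabp1b.1 and fabp2 was fabp7a, known as the brain type, at 2.22, with S5 at 1.02 and single arrays from 0.06 to 3.55.

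The brush border list had 9 of 15 members enriched and 1 depleted, with a median of 2.42. Structural members were close together. pls1 had 3.101, eps8l3b, of a family that caps and bundles microvillar actin, 2.93, ezra, which ties membrane to actin, 2.91 and villin (vil1) 2.51. Second probes read 2.79 for pls1, 3.18 for eps8l3b and 2.36 for vil1. Their relatives ezrb and msna were at -0.34 and -0.89 and were not called. Among the hydrolases, xpnpep2 and enpep, which clip amino acids from peptides, had 2.55 and 2.42, and alkaline phosphatase alpi.2 had 2.05, while alpi.1 was at -0.20 without a call. The depleted member was ggt1a, a gamma-glutamyltransferase, at -2.30 ± 0.16 (SE, n = 24), between -3.58 and 0.56 on single arrays.

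Transporters were mixed. Of 30 measured, 10 were enriched and 4 depleted, with a median of 1.13. The sodium-glucose carrier slc5a1 had 2.76 ± 0.07 (SE, n = 24), with arrays from 2.16 to 3.30, and the peptide carrier slc15a1b had 2.64. slc5a6a, a vitamin carrier for biotin and pantothenate, had 2.497, the copper importer slc31a1 2.08, and the phosphate carriers slc34a2a and slc34a2b 1.89 and 1.62. On the depleted side were aqp3a, a water and glycerol channel, at -3.96 with a second probe at -3.12, and slc46a1, a proton-coupled folate carrier in mammals, at -1.64. Paralogues split in 2 pairs. slc3a2a, the heavy chain of amino acid exchangers, averaged 2.46 and its paralogue slc3a2b -2.13, though a second slc3a2b probe read 0.28. The sodium pump subunit atp1b1a averaged 2.26 and atp1b1b -1.56, with atp1b1b above background in the intestine dye on 3 arrays and in the whole-fish dye on 9, and with further atp1b1a probes at 2.59 and 0.13.

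Oxidation and conjugation of foreign compounds and steroids was the other broadly enriched list, with 18 of 26 enriched, 1 depleted and a median of 2.04. After ugt5a2 and the cyp46a1 genes came ugt1ab at 3.05, glutathione transferase gsto1 at 2.92, cyp3a65, a relative of human CYP3A4, at 2.71 and the export pump abcc2 at 2.61. The depleted member was cyp2p10 at -1.57.

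Vitamin and iron handling held fewer calls, 6 enriched and 1 depleted of 25, with a median of 0.36. bco1l and bco1, which cleave beta-carotene to retinal, had 3.49 and 2.38, and rdh1, a retinol dehydrogenase, had 2.05. The iron exporter slc40a1 (ferroportin) had 2.04 and the B12 carrier tcn2 1.82. cybrd1, a membrane ferric reductase known from the mammalian duodenum, was depleted at -3.54, and its intestine signal was above background on 6 arrays. rbp2a, a retinol-binding protein of enterocytes, averaged 1.06 with 22 arrays saturated in Cy5 and was not called.

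Of 22 genes of gluconeogenesis, ketone and amino acid metabolism, 5 were enriched and 1 depleted, the enriched ones being pck1, gatm of creatine synthesis at 2.90 (second probe 0.31), pck2 at 2.18, hmgcs1 of sterol synthesis at 1.67 and glud1b at 1.58, which is a limit with 16 arrays saturated. The second gatm probe was above background on only 4 arrays in the intestine dye and 6 in the whole-fish dye. Fatty acid oxidation and peroxisomes had 6 of 24 enriched and none depleted, led by acaa1 at 1.5955, hsd17b4 at 1.56 and phyh at 1.54, all enzymes of peroxisomal breakdown, with a list median of 0.84. A second phyh probe read 0.69 and was not called. Of 23 genes of lysosomal proteases and endocytosis none was enriched and 5 were depleted, where 5.12% and 12% of all genes were. The F test across segments passed for 13 of the 23, where 7.61% of all genes passed. Array medians of the 23 ran from -0.75 to -0.21 over S1 to S4 and from -0.23 to 0.38 in S5. The depleted members were ctss2.1, ctsla and ctsba, all cathepsins, at -4.59, -2.99 and -2.24, and the membrane proteins lamp2 and lamp1b at -3.41 and -2.26. A second ctss2.1 probe read -0.01 and the other lamp2 probes 0.13 and -3.37.

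**Figure D2:**
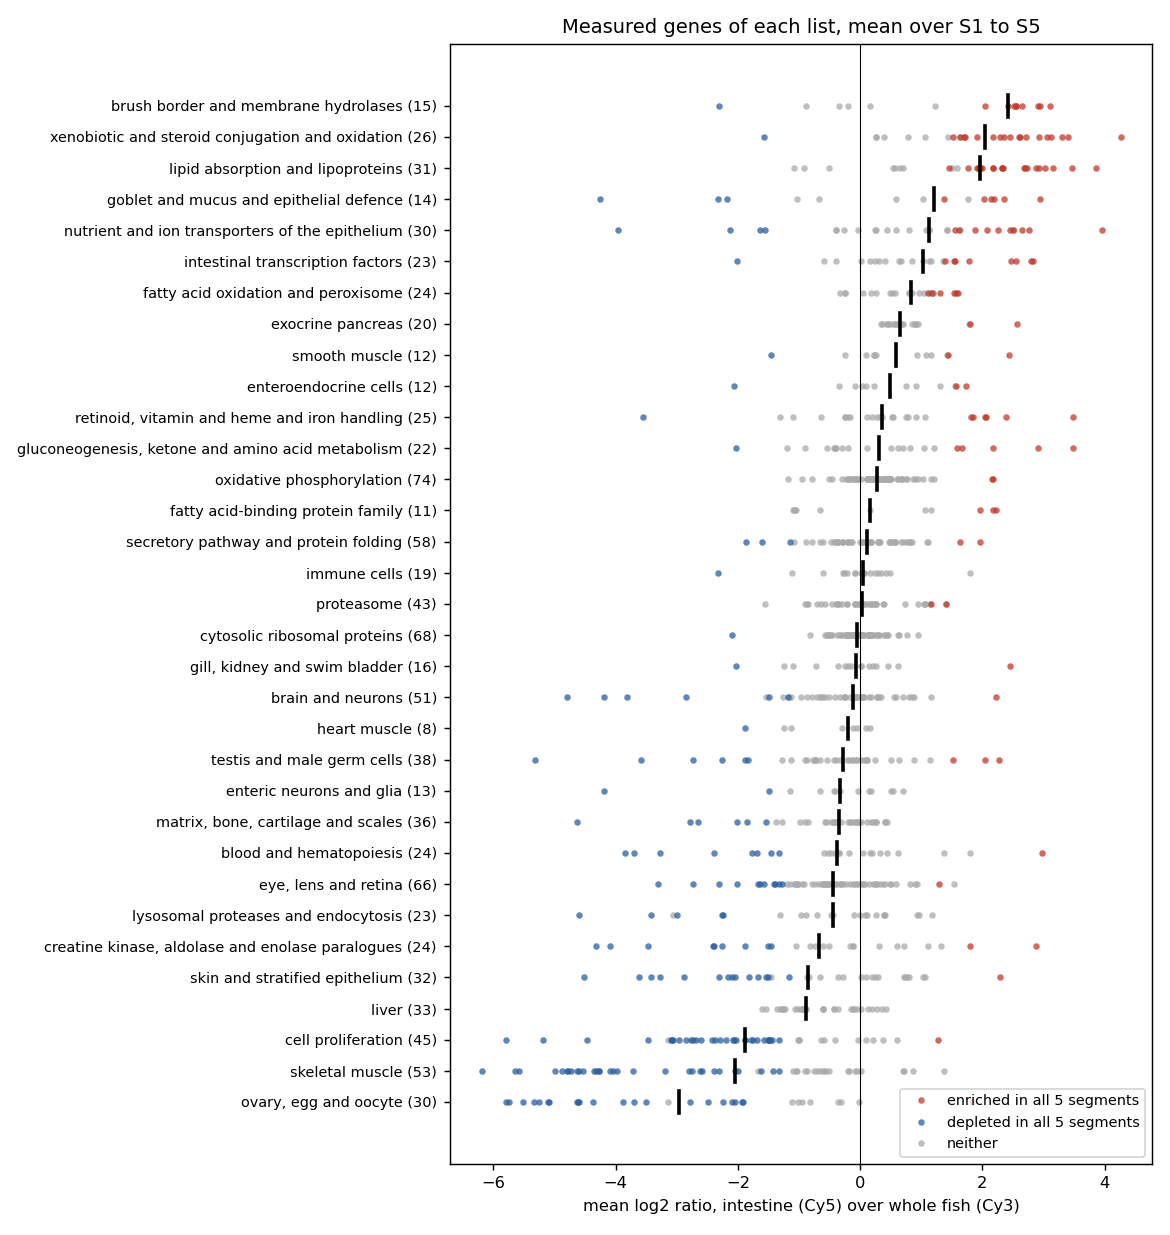
Mean log2 ratio of intestine over whole fish for each measured gene of 33 gene lists, with red points for genes enriched in all 5 segments, blue for depleted, grey for neither and a black tick at the list median. Lipid absorption, brush border and xenobiotic genes sit well above 0, and ovary, skeletal muscle and proliferation genes sit well below it.

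Transcription factors of the gut endoderm were among the enriched genes, 8 of 23 with 1 depleted. gata5 and gata6, which specify endoderm, averaged 2.83 and 2.55, while gata4 was at -0.40 without a call. The gata5 probe was above background in the whole-fish dye on 2 arrays. hnf4a and hnf4b, nuclear receptors of enterocyte genes, had 2.47 and 1.54, creb3l3a, a membrane-bound activator of lipid genes, 2.80 (second probe 0.60), foxa3 1.77, nr1h3, the oxysterol receptor, 1.56 and ppardb 1.39. Further probes read 2.09 for hnf4b, 1.05 for foxa3, 0.65 for nr1h3, and 0.24, -0.12 and -0.40 for ppardb. Of these only the hnf4b probe was enriched. id1, an inhibitor of basic helix-loop-helix factors, was depleted at -2.02.

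Markers of secretory cells were represented by few probes, and their counts stand against 5.12% enriched and 12% depleted over all genes. Of 14 genes of goblet cells and epithelial defence, 6 were enriched, including anxa2b at 2.94 ± 0.04 (SE, n = 24), the galectin lgals9l1 at 2.196 and agr2, a disulphide isomerase needed for mucin folding in mice, at 2.14 (second probe 0.83). Another 3 were depleted, chia.4, an acidic chitinase, at -4.26, lysozyme (lyz) at -2.33 and anxa1a at -2.18. The chitinases differed in direction, since chia.2 was enriched at 1.37 with 23 arrays saturated. Of 12 enteroendocrine genes, gcga, which encodes glucagon and related peptides, averaged 1.73, the opioid precursor penka 1.57, and tph1a, the serotonin-synthesising hydroxylase, -2.06, with the tph1a spot above background in the intestine dye on 6 arrays.

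In the gut wall, 2 of 12 smooth muscle genes were enriched and 1 depleted, where 5.12% and 12% of all genes were. acta2, smooth muscle actin, averaged 2.44 ± 0.06 (SE, n = 24, 8 arrays saturated) and myh11a, smooth muscle myosin, 1.44. Of 13 genes of enteric neurons and glia none was enriched and 2 were depleted, a share near that over all genes. Of 19 immune genes none was enriched and lyz was depleted. The immune median was 0.04, and it turned to -0.01 without background correction and to -0.10 in the authors' own values. Myeloperoxidase (mpx) averaged 1.80 but missed the call in S5. A second mpx probe pointed the other way, at -1.54 with single arrays from -2.39 to -0.22.

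The pancreas and the liver lie against the gut, and their markers differed between segments. Of 20 exocrine pancreas genes, 2 were enriched, pdia2, a pancreatic disulphide isomerase, at 2.57 and the carboxypeptidase cpa4 at 1.79 (a limit, with 19 arrays saturated), and none was depleted. Over all genes 5.12% were enriched and 12% depleted. The median of the 20 genes ran from -0.40 to 0.19 over the S1 arrays, -0.23 to 0.46 in S2, -0.33 to 0.50 in S3, 1.18 to 1.94 in S4 and 1.16 to 1.99 in S5, so that S4 and S5 did not overlap the 3 segments before them. The F test across S1 to S5 passed for 19 of the 20, where 7.61% of all genes passed. The part of pancreatic tissue in other genes that were higher in S4 and S5 was not tested. Of 33 liver genes none was enriched or depleted in all segments, the median of their means was -0.88, and 24 passed the F test. Their array medians ran from -0.05 to 0.77 in S1, -1.45 to -0.20 in S2, -2.01 to -1.08 in S3, -1.47 to -0.32 in S4 and -0.97 to -0.35 in S5, with S1 above every other array.

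**Figure D3:**
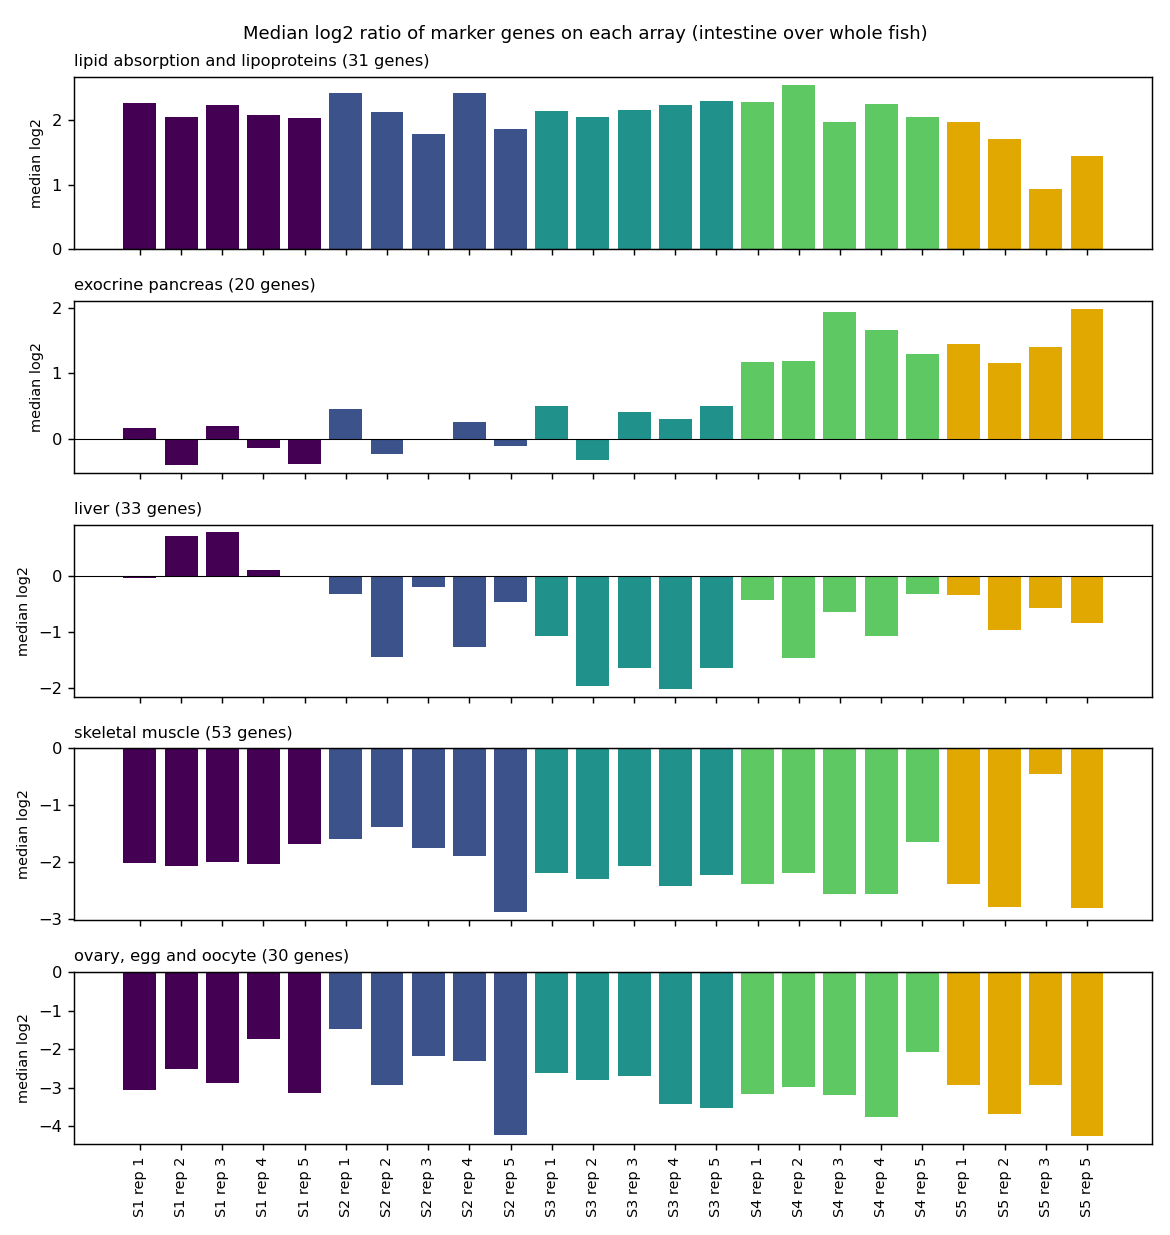
Median log2 ratio of intestine over whole fish over the members of 5 marker lists (lipid absorption, exocrine pancreas, liver, skeletal muscle, ovary), 1 bar for each of the 24 arrays in the order S1 to S5. Pancreas medians are between 1.16 and 1.99 on all S4 and S5 arrays, liver medians are highest in S1, and the skeletal muscle bar of S5 replicate 3, at -0.45, is far shorter than the others.

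Among the depleted genes without heavy saturation, asb5a, an ankyrin-repeat SOCS-box protein, had the lowest mean at -6.50 ± 0.20 (SE, n = 24), between -7.77 and -4.02 on single arrays with a median of -6.68. Its intestine spot was above background on 5 arrays and its whole-fish spot was saturated on 10, so neither the size nor the rank is exact. aspm, a spindle protein, had -6.32 with 21 arrays saturated in Cy3, which is a limit. myhc4, a fast myosin heavy chain, had -6.70, -6.60, -6.65, -7.05 and -7.01 in S1, -5.20, -6.16, -5.88, -6.10 and -7.29 in S2, -6.00, -5.73, -5.93, -7.05 and -7.13 in S3, -7.04, -5.68, -6.43, -7.12 and -5.28 in S4, and -6.37, -7.32, -4.29 and -7.19 in S5. Every intestinal pool was thus far below the whole fish, and the mean was -6.38 ± 0.15 (SE, n = 24, limma adjusted p = 1.6e-20).

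Of 53 skeletal muscle genes, 31 were depleted and none enriched, with a median of -2.04. pvalb4, a parvalbumin that buffers calcium in fast fibres, had -6.19 with 13 arrays saturated in Cy3, myhz2 -5.64, the fast troponin tnnc2.2 -5.57 and the calcium pump atp2a1l -4.98 with 20 arrays saturated. S5 replicate 3 was apart for these genes. The median over the 53 genes was -0.45 on it, against -2.89 to -1.38 on the other 23 arrays, and myhz2 read -0.25 there. Without S1 replicate 4 and S5 replicate 3 the count stayed at 31. Of 8 heart genes 1 was depleted, tnnc1b at -1.89, a share near the 12% over all genes.

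Ovary and egg genes were depleted in 21 of 30 cases and enriched in 1, with a median of -2.97. The intestines were from males, and the whole-fish RNA held 1 part female. The egg coat proteins zp3b, zpcx and zp3a.1 averaged -5.51, -5.33 and -5.09, and zar1 and btg4, which act in the oocyte-to-embryo transition, -4.60 and -5.10. zp3b read -5.36, -5.52, -6.14, -3.19 and -5.82 in S1, the high value being S1 replicate 4. On that array the median over the 30 genes was -1.72, and over all arrays it ran from -4.26 in S5 replicate 5 to -1.47 in S2 replicate 1. The enriched member was the linker histone h1-10 at 1.83. Of 38 testis genes 6 were depleted and 3 enriched, shares close to the 12% and 5.12% over all genes, and their median was -0.27. ropn1l of the sperm tail had -5.32, dazl of germ cells -3.58, the steroid enzyme cyp17a1 -2.73 and the germ cell helicase ddx4 -2.26, against spag1a at 2.28, sycp3 at 2.05 and tuba5 at 1.52 on the enriched side. sycp3 had 3 further probes at 1.91, 1.87 and 0.24.

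Genes of cell division had 32 of 45 members depleted and 1 enriched, with a median of -1.88. The cyclin ccnb1 averaged -5.80, topoisomerase top2a -5.18, the ribonucleotide reductase subunit rrm2 -4.47, the kinase plk1 -3.47, mki67 -2.37 and pcna, the DNA clamp, -1.32. The enriched member was mcm3, of the replicative helicase, at 1.27. ccnb1 is counted among the egg genes too, and on S1 replicate 4 it read -2.21. Other rrm2 probes read 0.74 and -2.68, the latter depleted as well. A second top2a probe read 0.03, but it was above background on 0 arrays in the intestine dye and on 7 in the whole-fish dye.

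Of 32 skin genes 14 were depleted and 1 enriched. krt5 and krt91, keratins, averaged -4.51 and -3.62, with 19 and 21 arrays saturated in the whole-fish dye, and the claudins cldn7b and cldni -3.42 and -3.28, while the keratin krt92 averaged 2.29 with 21 arrays saturated in the intestine dye. Second probes read -4.775 for krt5 and -0.87 for krt91, the latter without a call. The lists of matrix and bone (6 of 36 depleted, none enriched, median -0.35), eye (11 of 66 depleted, 1 enriched, median -0.44) and brain (6 of 51 depleted, 1 enriched, median -0.11) had depleted shares close to the 12% over all genes. This depends on the processing. In the authors' own values 10 matrix, 20 eye and 9 brain genes were depleted, with medians of -0.96, -1.20 and -0.37. There 2443 of 19479 probes were depleted. The strongest called members of the 3 lists included the collagens col1a1a at -4.63 (second probe -2.73) and col1a2 at -2.79 (second probe -2.31) and the lens genes lim2.4 at -3.30, crygm2b at -2.73 and cryaa at -2.31. The neuronal genes gap43, uchl1, stmn1b and stmn1a averaged -4.79, -4.19, -3.81 and -2.84. Their single arrays reached up to -0.62 for gap43, and to -2.27, -1.55 and -1.59 for the others.

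Blood had 8 of 24 genes depleted. The globins hbba1, hbaa2 and hbba2 averaged -3.85, -3.70 and -3.28 and the red cell carbonic anhydrase cahz -1.68 (second probe 0.52). The embryonic-type globin hbbe2 stood on the other side at 2.98 ± 0.18 (SE, n = 24), positive on 23 of 24 arrays. Whether the probes tell related globin genes apart was not tested, so the assignment of signal to a single globin gene is uncertain. Among 16 genes of gill, kidney and swim bladder, cdh17, a cadherin that is a gut marker in mammals, was enriched at 2.45. The sodium pump subunit atp1a1a.2 was depleted at -2.02. These were the only calls of the list, against shares of 5.12% enriched and 12% depleted over all genes.

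Related genes with opposite ratios occurred in the energy and cytoskeleton genes as well. Of 24 creatine kinases, aldolases and enolases, 2 were enriched and 9 depleted, where 5.12% and 12% of all genes were. Mitochondrial ckmt1 averaged 2.87 ± 0.06 (SE, n = 24) and brain-type ckba 1.79, whereas the muscle types ckma and ckmb averaged -4.31 and -4.09 with 19 and 18 arrays saturated in Cy3, aldolase aldoab -3.47 and the second brain type ckbb -1.46. Probes differ, however. A second ckma probe read 1.32, second probes of ckmt1 and ckmb read 0.95 and -0.88, and the second aldoab probe read -2.46. Actins split likewise, with acta2 at 2.44 and cardiac actc1a at -1.62, which had 13 arrays saturated in Cy3.

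**Figure D4:**
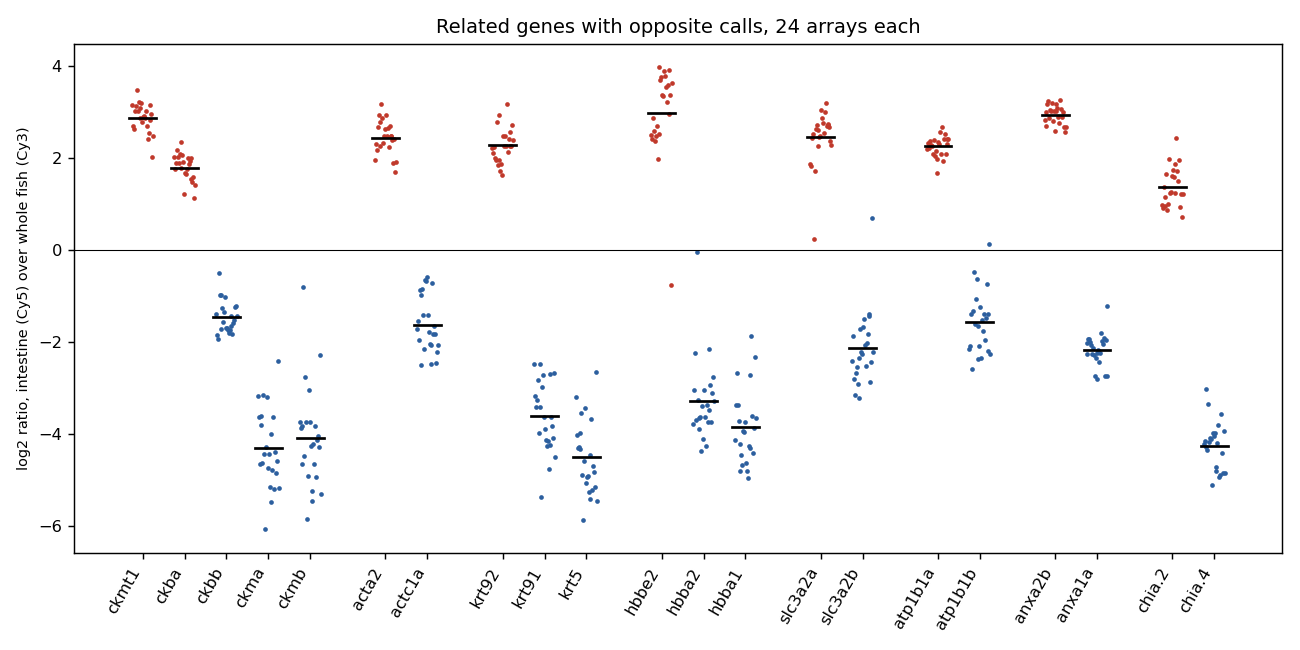
Log2 ratio of intestine over whole fish on each of the 24 arrays (points) with the mean (line) for related genes set side by side: creatine kinases, actins, keratins, globins, slc3a2 and atp1b1 pairs, annexins and chitinases. In each set at least 1 member lies mostly above 0 and at least 1 below, for example ckmt1 at 2.87 and ckma at -4.31.

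Genes used by every cell held few calls after loess normalization within the array. Of 68 cytosolic ribosomal protein genes none was enriched and 1 was depleted, and their median of -0.05 became 0.60 when arrays were only centred on their medians and 0.75 in the authors' own values. The depleted one, rpl37, was not above background in the intestine dye on any array, so the size of its difference is uncertain. Its intestine signal was set no lower than the dimmest spot above background on each array. It was then 3.63-fold lower in intestine, which is an estimate and not a strict limit. The test of its ratio against 0 gave a limma adjusted p of 7.8e-12. Of 74 oxidative phosphorylation genes 2 were enriched, cox6b1 at 2.17 and ndufa4b at 2.15, of 43 proteasome genes 2, psma6b at 1.41 and psmd11b at 1.15, and in each list none was depleted. The oxidative phosphorylation median of 0.27 became 0.51 with median centring only and 0.65 in the authors' own values. The secretory pathway had 2 of 58 enriched, sar1b and the coat protein sec31a at 1.63, and 3 depleted, the chaperones pdia4 and hspa5 at -1.87 and -1.60 and the signal peptidase subunit spcs3 at -1.15. These shares are below those over all genes (5.12% enriched and 12% depleted).

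A shared sign across 5 segments did not mean a shared level. By the F test across the segment means, 666 of 8754 genes differed among S1 to S5 (7.61%). Over probes 1201 passed, and 1812 passed without S2 replicate 5. Of the 448 enriched genes 72 passed (16.1%), and of the 1052 depleted genes 13 (1.24%). The enriched genes were selected on their means, which are part of the same values, so these shares describe the members. Among the 72, the lowest segment was S5 in 50 genes, S1 in 11, S2 in 9 and S4 in 2. Over all 448 enriched genes it was S5 in 221, S2 in 120, S1 in 52, S4 in 39 and S3 in 16. Without S5 replicate 3 and S1 replicate 4, 51 of the 72 passed. The genes in the next 2 paragraphs were chosen after their values were seen.

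Of the 31 lipid genes 12 passed the F test. Some had their lowest mean in S5, while cd36 and fabp2, which did not pass and were mostly saturated, had theirs in S1. apoa4a averaged 4.59 ± 0.35, 4.37 ± 0.38, 4.73 ± 0.42, 3.91 ± 0.46 and 1.72 ± 0.89 from S1 to S5 (SD, n = 5, 5, 5, 5 and 4, limma F adjusted p = 5.9e-06), and its S5 arrays, 2.66, 1.63, 0.55 and 2.04, were all below the other 20. For mttp the segment means were 3.34, 3.33, 3.32, 3.02 and 2.13, for dgat2 2.32, 2.16, 2.21, 1.98 and 1.07, and for slc15a1b 3.01, 3.03, 2.81, 3.00 and 1.37. sult6b1, a sulfotransferase, declined in steps, at 3.56, 3.11, 2.65, 2.16 and 1.65, and dhrs11b.2, a short-chain dehydrogenase, did the same at 3.45, 3.196, 2.58, 1.73 and 1.62. aqp10a, a channel for water and glycerol, went further, at 4.15, 3.57, 2.90, 1.31 and 0.66 (limma F adjusted p = 1.0e-06), and fell outside the enriched genes on account of S5. The sult6b1 values are those of a single probe, and further sult6b1 probes had means of 0.71 and -0.85 and were not called. The median over the 31 lipid genes ran from 2.04 to 2.27 in S1, 1.78 to 2.42 in S2, 2.04 to 2.298 in S3, 1.96 to 2.54 in S4 and 0.93 to 1.97 in S5, where S5 replicate 3 was lowest.

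Other genes had their highest mean in S5. enpep had 1.18, 0.71, 1.19, 1.78 and 1.395 in S1, 1.68, 1.88, 1.77, 1.58 and 2.03 in S2, 2.75, 2.52, 2.47, 2.29 and 2.73 in S3, 3.14, 3.42, 3.27, 3.25 and 3.05 in S4, and 3.196, 3.47, 2.81 and 3.62 in S5. S3 to S5 did not overlap S1 and S2, and the F test gave an adjusted p of 4.3e-08 (limma). anpepb.1, another aminopeptidase, averaged 1.67, 1.73, 2.73, 2.94 and 3.19, and xpnpep2 2.00, 2.15, 2.83, 2.78 and 3.00. The median over the whole brush border list was highest in S4, between 1.98 and 3.00 on its arrays, and lay between 1.85 and 2.24 in S5. The means were 2.13, 1.79, 2.75, 3.11 and 3.37 for dao.2, a D-amino acid oxidase. The tight junction gene cldn15a had 2.07, 1.78, 2.26, 2.62 and 2.93. scd, which makes monounsaturated fatty acids, was highest in the mid-intestine, at 1.24, 1.70, 3.07, 3.06 and 2.33. gcga was highest in S1, with 3.84, 3.35, 3.77, 3.14 and 3.09 there and means of 1.64, 1.39, 1.04 and 1.13 from S2 to S5. The insulin gene (ins), a marker of pancreatic beta cells, shared this order without being enriched, at 3.16, 1.07, 0.61, 0.02 and 0.33, and in S2 the highest array was replicate 5 for both genes (3.00 for gcga and 2.90 for ins). The part of pancreatic islets in the gcga value was not tested.

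**Figure D5:**
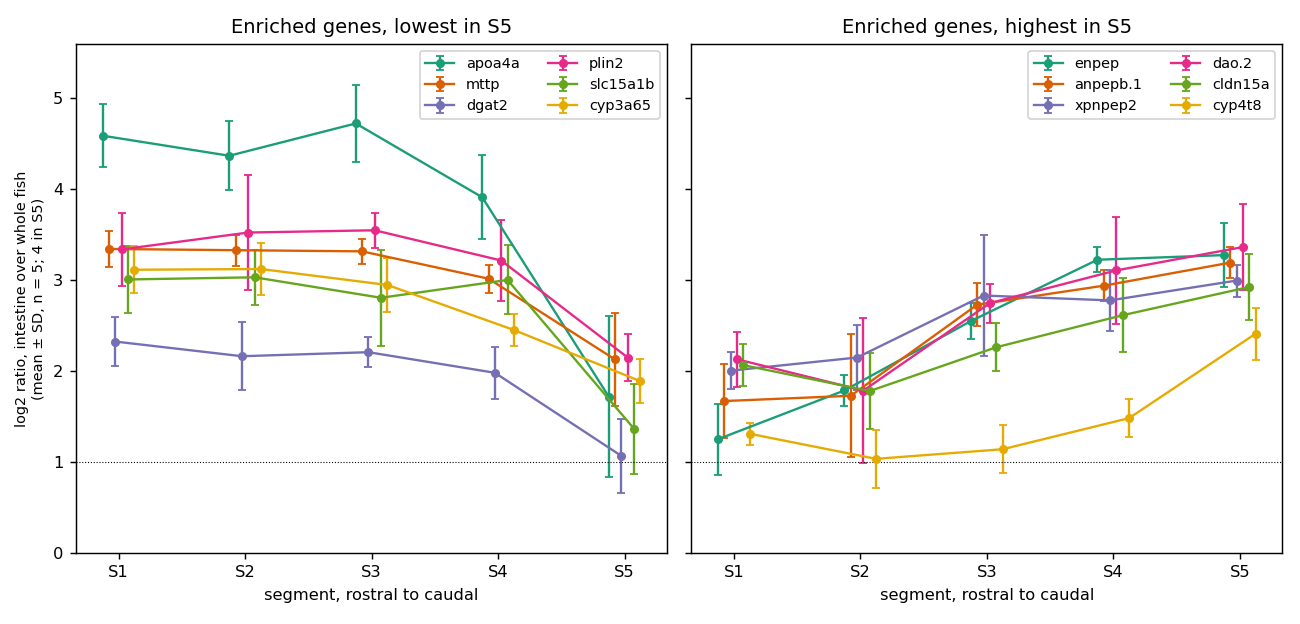
Segment means (± SD, n = 5 arrays, 4 for S5) of the log2 ratio of intestine over whole fish for 12 enriched genes, with a dotted line at the 2-fold limit of 1. apoa4a, mttp, dgat2, plin2, slc15a1b and cyp3a65 are lowest in S5 (apoa4a at 1.72), and enpep, anpepb.1, xpnpep2, dao.2, cldn15a and cyp4t8 are highest in S5 (enpep at 3.28).

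Genes with several probes limit how far a single ratio speaks for a gene. Of 1574 genes with more than 1 probe tested, 133 had an enriched probe and in 50 of these all probes were enriched. A depleted probe occurred in 304, and in 64 all were depleted. In 8 genes 1 probe was enriched and another depleted, among them mvp, ppiaa and crygm2d13, and in 149 the probes spread over more than 2 on the log2 scale. Second probes disagreed for uevld, mrpl13 and nova2, of the 15 lowest genes selected for naming. They read -0.30, 0.44 and -0.85, where the probes used read -5.78, -5.76 and -5.40.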

How the data were processed

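Pools of intestinal segments (Cy5) and RNA of the whole fish (Cy3) were hybridised to in-house spotted oligonucleotide arrays of 23232 spots. The deposited array files hold, per spot and dye, the scanner's mean intensity and median local background with its SD, written by the authors without normalization; the scanning software is not given in the sources used here. The authors' own log2 ratios of the same arrays were used as an alternative only. The study's methods name LOWESS, but on each array these values differed from the plain log2 ratio by a constant. Labels and methods describe the labelling reaction differently. Arrays of the other 2 segments (6) were not analysed here.

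Intensities were corrected with normexp (offset 50) and normalized by loess within each array (limma 3.58.1, R 4.3.3, package data.table, version 1.17.8), with 245 control spots (bactin2, ccnd1, cxcr4a, gapdh and vtg3, each spotted many times) at weight 0 and left out of the tests. Spots exceeding the local background median by 2 of its SDs counted as above background, and probes for which this was so with Cy5 or Cy3 on 3 or more arrays of at least 1 segment (19479) were tested. Segment means were fitted with lmFit and eBayes over the 24 arrays, and p-values were adjusted by Benjamini-Hochberg over all tested probes. Variation among segments was tested with the F statistic of the same fit. The steps were checked on simulated data. Spots at the top of the scanner's scale were kept and counted as saturated. A gene is represented by its probe of highest mean intensity. Of 23232 spots, 3592 carried a current symbol, 25 were named by accession, 7978 by an older synonym, 129 kept the deposited symbol and 11508 had none. Each intestine was cut into all segments, so pools of different segments may come from the same fish. Nothing in the labels shows whether pools of different segments or replicates shared fish. The SEs and p-values take the 24 arrays as separate. They rest on the spread between pools of the same segment, as estimated by limma. An SE of the mean over segments thus leaves out the spread between segments.

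Genes named in the text were taken from the 15 highest and the 15 lowest genes called in all segments, not all of which are given. These had a gene name, all arrays on 1 side of 0 and no saturation on more than 12. Cy5 (enriched) or Cy3 (depleted) was above background on all their arrays. Also named are some genes saturated beyond that (as limits), up to 4 leading members and the opposite members of a gene list, and some of the genes the study names. Some further genes, such as mki67, pcna, ezrb, msna, alpi.1 and gata4, were named outside this rule. The comparison, the lists and the rule were chosen with earlier results of these data known. Alternatives were no background correction, an offset of 0, median centring, scaling or Aquantile between arrays, the authors' values, saturated spots as missing, other filters on dim probes, treat against the 2-fold limit, the replicate number as a block, and each array left out. Leaving out S1 replicate 4 and S5 replicate 3 together was added after seeing the data.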

Additional observations from a re-analysis of the deposited data

Results flagged for a closer look

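Checks covered 195 groups of 4 or 5 arrays, by segment. They held the 15 highest and 15 lowest genes of the naming rule and the medians of some gene lists. These lists were lipid absorption, exocrine pancreas, liver, skeletal muscle, ovary, skin, cell proliferation, smooth muscle and blood. The other lists were not checked in this way. In each group the highest or lowest array was checked for a gap to its nearest neighbour that took up most of the group's range. Such a gap was found in 17 groups, and chance gives about 1 in 20. Values are log2 of intestine over whole fish. S1 replicate 4 was less negative than the other S1 arrays for the egg coat genes zp3b at -3.19 and zpcx at -1.997, for cldng at -2.36 and for znfl2a at -3.82 (others -6.62 to -6.03), while its median over blood genes was the lowest at -0.64 (others -0.41 to -0.32). S5 replicate 3 was less negative for myhz2 at -0.25 (others -6.42 to -5.58), asb5a at -4.02 (others -6.88 to -6.43) and zp3b at -4.99. Single arrays apart were S1 replicate 5 for nova2 at -0.015 (others -6.03 to -4.46), S3 replicate 2 for ankyrin-repeat gene ankrd45 at 0.40 (others 3.13 to 3.82), S3 replicate 4 for gpat3 at 4.20 (others 3.83 to 3.90), S4 replicate 4 for ccnb1 at -6.96 (others -5.76 to -5.60) and S5 replicate 2 for pls1 at 3.57 (others 3.08 to 3.16). Among list medians, S3 replicate 2 was low for exocrine pancreas at -0.33 (others 0.30 to 0.50) and high for smooth muscle at 1.23 (others 0.44 to 0.66), S1 replicate 5 was high for skeletal muscle at -1.68 (others -2.07 to -1.99), and S2 replicate 5 was low for skin at -1.27 (others -0.74 to -0.55).

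Of the 15 leading enriched genes under the naming rule, 5 differed among S1 to S5 by the limma F test. S5 was lowest in each of them. The distance between the highest and lowest segment means was 3.01 for apoa4a (adjusted p = 5.9e-06), 1.401 for plin2 (0.0068), 1.32 for gpat3 (0.00083), 1.48 for cyp46a1.1 (0.015) and 1.19 for slc43a2b (0.039). Without S1 replicate 4 and S5 replicate 3, cyp46a1.1 and slc43a2b did not pass.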

How the results depend on the processing

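For 209 genes, 197 of them called, the mean ratio was recomputed under each alternative, and it kept its direction wherever the gene was tested. Over probes, 931 were enriched and 1777 depleted, with 1611 above and 2529 below the whole fish by 2-fold in the mean over segments and 1201 differing among segments. Requiring Cy5 or Cy3 above background on every array left 6709 probes and gave 573, 1159, 862, 1501 and 671 for these 5 counts. Treat against 2-fold gave 371 and 886 for the calls in all segments. The authors' values gave 1280 and 2443, of which 900 and 1561 were shared with the 931 and 1777, and 4622 probes lay below by 2-fold in the mean. They also moved the median over all probes to -0.13, against 0.01. With them, 9 of 38 testis genes, 3 of 8 heart genes and 3 of 13 genes of enteric neurons and glia were depleted. Aquantile leaves ratios unchanged. All other scalings and filters kept the counts within 1.5 times.

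Leaving out 1 array gave 805 to 1009 enriched, 1586 to 1837 depleted, 1560 to 1667 above and 2442 to 2591 below in the mean, and 879 to 1812 differing among segments, with the fewest calls and the most differing probes (1812) without S2 replicate 5. Of the 197 called genes, 174 stayed called whichever array was left out. The others lost their call, with these mean log2 ratios: without S2 replicate 5 atp1b1b (-1.51), sec31a (1.57), psma6b (1.36), nr1h3 (1.5035), ppardb (1.34), slc34a2a (1.76), cyp4t8 (1.45, and 1.46 without S2 replicate 3) and hsd17b4 (1.51, and 1.52 or 1.53 without S1 replicate 3 or 4); without S5 replicate 1 dgat2 (1.91), hnf4b (1.51), shha (1.38), fabp7a (2.16) and fabp1b.1 (2.1035); without S5 replicate 2 apobb.1 (1.95), chia.2 (1.36), fabp7a (2.22) and fabp1b.1 (2.13); without S5 replicate 5 penka (1.51), phyh (1.51), chia.2 (1.36) and gcga (1.70, and 1.71 or 1.70 without S4 replicate 1 or 3); without S3 replicate 4 spcs3 (-1.12); without S1 replicate 5 or S4 replicate 3 mcm3 (1.24). crygm2d13 (1.22 to 1.26) and psmd11b (1.12 to 1.14) lost it when any of 5 arrays was left out, and pdcd10a (1.08 to 1.09) when any of 7 was. apoa1a (1.597) and mpx (1.86) were called without S5 replicate 3, and gsn and vwa5a (1.09 to 1.21) without some S2 arrays. Without both S1 replicate 4 and S5 replicate 3, 958 probes were enriched, 1831 depleted and 989 differed among segments, and of the 33 gene lists 10 changed their counts, by 1 or 2 genes each (brain to 8 depleted, immune genes to 1 enriched).

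Replicate numbers are shared by the segments in the labels, but nothing in them says what a number stands for. Over 46 same-numbered pairs the mean correlation of deviations was 0.06, against -0.01 for other numbers, 16 pairs were over 0.1, and 10 of 24 arrays, not all, correlated best with their own number. With the replicate block as a random term 932 probes were enriched and 1777 depleted, and as a fixed term 944 and 1778.

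Depleted sizes are limited by dim intestine spots. Of the 1052 depleted genes, 897 were not above background in that dye on 1 or more arrays, and 15 on all 24. The whole-fish dye was saturated on some array in 103 depleted genes. Enriched sizes are limited by dim whole-fish spots, which 291 of the 448 enriched genes had on 1 or more arrays. They are also limited by saturation in the intestine dye, which occurred on some array in 71 of the 448. Without a dye swap the dye cannot be told apart from the tissue.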

Other observations

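The yolk protein gene vtg3, made by the liver of females, was spotted in 15 copies as a control and left out of the tests. The median log2 ratio of intestine over whole fish over its copies was -0.14, -0.09, -0.38, -1.17 and -1.40 on the S1 arrays, -0.72, -4.12, -3.75, -3.04 and -2.59 on the S2 arrays, -1.15, -3.57, -4.23, -3.90 and -1.44 on the S3 arrays, -0.26, -3.43, -3.06, -2.32 and -0.17 on the S4 arrays and -0.70, -2.84, -3.45 and -0.85 on the S5 arrays. The arrays of a segment thus differed by up to several log2 units for this gene, although all intestines were from male fish. In S2, S3, S4 and S5 replicates 1 and 5 lay above the other arrays of the segment. In S1 replicate 5 was the lowest. Whether pools with the same number shared a source for this gene was not tested. The SD over the actin control copies within an array was 0.078 to 0.29.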
